A study of Mus musculus with 135 samples.

Results

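The genes for glutamate receptors and postsynaptic scaffolds were described here in the cortex and hippocampus of Townes mice, a model of sickle cell disease. The set held 33 genes, picked by symbol from the 55416 gene rows that the count tables of both tissues list. The choice was made with earlier results of these data known, so it was not blind to them. By role it comprised the AMPA receptor subunits Gria1 to Gria4, the NMDA receptor subunits Grin1, Grin2a, Grin2b, Grin2c, Grin2d and Grin3a, the kainate receptor subunits Grik1 to Grik5, the delta receptor Grid1, and the metabotropic receptors Grm2, Grm3, Grm4, Grm5, Grm7 and Grm8. The vesicular glutamate transporters Slc17a6 and Slc17a7, the scaffolds Homer1, Dlg4, Shank1, Shank2 and Shank3, the AMPA receptor auxiliary subunits Cacng2 and Cacng8, and the kinase subunits Camk2a and Camk2b completed it.

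Glutamate is the main excitatory transmitter of both tissues. Vesicular transporters load it into synaptic vesicles, AMPA and kainate receptors open as fast cation channels, NMDA receptors admit calcium when the membrane is already depolarized, and metabotropic receptors act through G proteins. Under the membrane, Dlg4 (PSD-95), the Shank proteins and Homer1 hold the receptors in a protein lattice, and the calcium/calmodulin kinase CaMKII changes AMPA receptor number and conductance during plasticity.

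All mice were male Townes mice, in which human globin genes replace the mouse ones. The paper states an age for its first cohort and none for its second. Age was not given in the labels, so the groups could not be compared for it. SS mice carry the sickle allele of human beta-globin and AA mice its normal form. Some mice of each genotype underwent repeat social defeat (RSD), in which an aggressive male intruder was placed in the home cage of 3 residents for 2 h a day on 6 consecutive days, and some received minocycline, a tetracycline antibiotic, in the drinking water from the day before RSD to its last day. Mice without RSD had no intruder, and mice without minocycline are called controls below when they had no RSD either. The tests in the cortex used 12 AA and 8 SS controls. Stress without drug was represented by 2 AA + RSD and 6 SS + RSD mice, the drug without stress by 1 AA + minocycline and 4 SS + minocycline mice, and both together by 18 AA + RSD + minocycline and 14 SS + RSD + minocycline mice. In the hippocampus there were 11 AA and 7 SS mice, and the other groups had the same numbers as in the cortex. In this design stress and drug are compared within a genotype, the genotypes are compared within a condition, and the tissues are compared within the control mice.

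The 128 libraries used in the tests had a median of 34199033 reads on genes, and 1.16% of these in the cortex and 1.46% in the hippocampus, by median, fell on the 33 genes. The lowest count of any of the genes in any library was 194 (Grin2d) in the cortex and 87 (Grm8) in the hippocampus, and all 33 passed the filter on low counts in every comparison. The marker genes of each tissue matched its label in the control mice: the summed level of 5 cortex markers was 492 to 573 CPM in AA cortex and 115 to 170.2 CPM in AA hippocampus. Both libraries of the mouse labelled 9674 carried the markers of the opposite tissue, and in each tissue a library of an SS + minocycline mouse held the same counts as one of an AA + RSD + minocycline mouse. These libraries were left out of the tests. The libraries of the mice labelled 5844, 5853, 7078 and 9631, whose red cell marker or globin counts go against their labelled genotype, were kept under their labels. The summed red cell markers ranged up to 110 CPM in AA cortex (median 4.82 CPM) and down to 7.33 CPM in SS + RSD + minocycline cortex (median 86.8 CPM). Without these libraries edgeR called 0 of the 33 genes in each of the 6 comparisons of SS with AA below, as with them. Mouse numbers fell into 3 series, here A, B and C. All RSD mice without minocycline were in series A, all RSD mice with minocycline in series B or C, and the controls in A and B, so the drug in stressed mice and the number series cannot be told apart by a direct comparison. The paper gave minocycline in its second cohort only, and series A held no minocycline mouse. The drug comparison under RSD may thus cross the cohorts. What the series stand for, and which mice belong to which cohort, was not given in the labels.

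Expression levels between genes were compared per kilobase of canonical transcript, as reads scaled to 1000000 reads on genes (CPM) and divided by the length of that transcript. In AA cortex the order was led by Camk2a at 805 ± 121 CPM per kb (SD, n = 12), followed by the transporter Slc17a7 at 409.8 ± 27.7 and by Camk2b at 291 ± 11.7. The ranges of mean ± SD of these 3 genes did not overlap. Grin1, the obligatory NMDA receptor subunit, ranked 4 at 143 ± 15.8 CPM per kb and its range of mean ± SD overlapped with that of the scaffold Dlg4 at 125 ± 7.02. At the other end were the kainate receptor subunit Grik1 at 4.17 ± 0.538 and the NMDA receptor subunit Grin2d at 2.39 ± 0.366, whose ranges of mean ± SD did not overlap. Between them, from Shank1 to Grik1, these ranges overlapped for neighbouring genes at all but 3 steps.

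In AA hippocampus Camk2a again led with 974 ± 137 CPM per kb (SD, n = 11), but Camk2b at 525.7 ± 77.7 lay above Slc17a7 at 410.2 ± 36.98, with no overlap of mean ± SD. Gria1, an AMPA receptor subunit abundant in hippocampal pyramidal cells, ranked 7 in the cortex (55.1 ± 3.37) and 4 in the hippocampus (186 ± 19.9). Homer1 ranked 11 in the cortex (31.3 ± 6.67) and 17 in the hippocampus (14.5 ± 1.69). The lowest gene in the hippocampus was Grm8, a presynaptic metabotropic receptor, at 1.98 ± 0.468. The same 3 genes led each tissue in SS mice, with Camk2a at 907 ± 68.9 CPM per kb in the cortex (n = 8) and 1052 ± 140.4 in the hippocampus (n = 7).

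**Figure D1:**
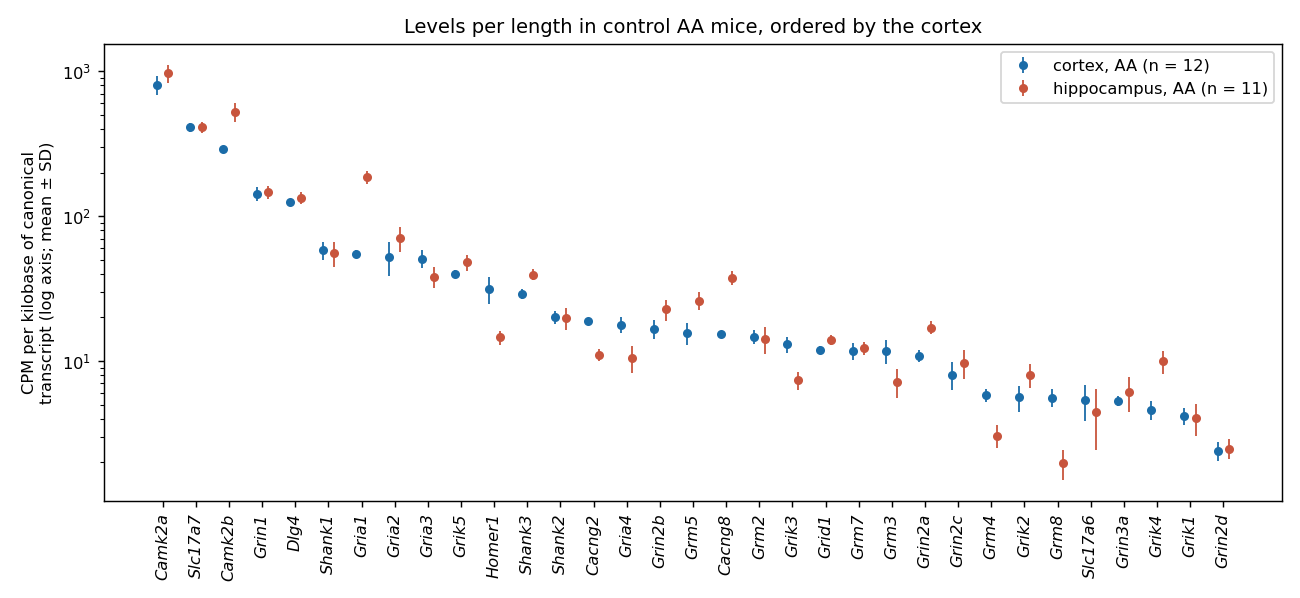
Mean level of the 33 genes (y axis, CPM per kilobase of canonical transcript, log scale) with the SD, in AA control cortex (n = 12) and hippocampus (n = 11). The genes run from Camk2a at 805 and 974 CPM per kb to Grin2d at 2.39 in the cortex and Grm8 at 1.98 in the hippocampus, and Gria1 in the hippocampus stands well above its cortical level.

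Between the tissues, 22 of the 33 genes differed in AA control mice, 14 higher and 8 lower in the hippocampus, where 36.6% of all genes tested differed, 18.5% higher and 18.1% lower (edgeR quasi-likelihood test, adjusted p under 0.05). In SS control mice 19 differed, 10 higher and 9 lower, against 30.6% of all genes, 15.1% higher and 15.5% lower. The median log2 fold change of the 33 genes was 0.03 in AA and 0.02 in SS mice, and that of all genes was 0.01 and 0.02. The tissues did not overlap for 11 of the genes in AA and 10 in SS mice, where 10.9% and 14.7% of all genes with a mean of at least 1 CPM did not overlap. In bulk tissue, fewer cells of a type and less RNA per cell cannot be told apart. The summed level of the neuron markers was 3515 to 4458 CPM in AA hippocampus and 5196 to 6216 CPM in AA cortex, and its part in these differences was not tested.

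Among the AMPA receptor subunits, the 4 genes went in both directions. Gria1 was at 859, 1082 and 1252 CPM (lowest, median and highest library) in AA hippocampus and at 294, 327 and 362 CPM in AA cortex. Each hippocampal library was above each cortical one, with a log2 fold change of 1.72 ± 0.06 (SE; 95% interval 1.60 to 1.85; edgeR adjusted p = 2.49e-23), a 3.30-fold difference. In SS mice Gria1 was at 896, 1103 and 1158 CPM in the hippocampus and at 274, 311 and 351 CPM in the cortex, a log2 fold change of 1.75 ± 0.08. Gria4, a subunit with fast kinetics that is prominent in some interneurons, was lower in the hippocampus without overlap in AA mice, at 31.5, 65.2 and 72.2 CPM against 83.0, 101 and 118 CPM (-0.80 ± 0.09, adjusted p = 4.04e-09). Its log2 fold change in SS mice was -0.93. Gria3 was lower in the hippocampus, with a log2 fold change of -0.44 ± 0.09 in AA and -0.45 in SS mice. Gria2, the subunit that makes AMPA receptors impermeable to calcium, was higher in AA hippocampus (0.40 ± 0.12, adjusted p = 0.00837) and had a log2 fold change of 0.37 with an adjusted p of 0.0586 in SS mice.

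The auxiliary subunits that escort AMPA receptors to the synapse also split. Cacng8 was at 73.5, 99.0 and 108 CPM in AA hippocampus and at 34.01, 38.96 and 40.8 CPM in AA cortex, a log2 fold change of 1.27 ± 0.07 (edgeR adjusted p = 4.5e-18). Cacng2 (stargazin) was at 51.7, 63.4 and 72.3 CPM in AA hippocampus and at 98.4, 107 and 120.1 CPM in AA cortex, a log2 fold change of -0.81 ± 0.05 (edgeR adjusted p = 3.14e-17). For both genes the tissues were apart in every control library of both genotypes, with log2 fold changes of 1.12 and -0.90 in SS mice.

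Of the 6 NMDA receptor subunits, the obligatory Grin1 was nearly level between the tissues. It was at 524, 606 and 740.3 CPM in AA hippocampus and at 527, 629 and 732 CPM in AA cortex, and the 95% interval of its log2 fold change ran from -0.11 to 0.11. An RNA gene on the opposite strand overlaps 30.3% of Grin1's exons, and the strand setting of the counting was not given in the sources used here. The modulatory subunit Grin2a was higher in AA hippocampus without overlap, at 208, 254 and 297 CPM against 125, 163 and 183 CPM (0.62 ± 0.08, adjusted p = 1.48e-08). Grin2b was higher in the hippocampus of both genotypes, with log2 fold changes of 0.41 ± 0.10 in AA and 0.32 in SS mice. Grin2c was called in AA mice alone (0.25, adjusted p = 0.048) and Grin2d in SS mice alone. Grin2d, a subunit of low abundance here, was at 10.7, 12.8 and 15.2 CPM in SS hippocampus and at 10.6, 16.3 and 17.6 CPM in SS cortex (-0.29 ± 0.10, adjusted p = 0.0273), while its log2 fold change in AA mice was 0.03.

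Of the 5 kainate receptor subunits, 4 differed. Grik4, a high-affinity subunit, was at 41.3, 61.5 and 83.6 CPM in AA hippocampus and at 23.2, 27.6 and 34.3 CPM in AA cortex (1.08 ± 0.09, edgeR adjusted p = 1.18e-12). Grik3, a low-affinity subunit, went the other way, at 54.9, 67.999 and 87.3 CPM against 93.7, 120.4 and 147 CPM (-0.85 ± 0.08, edgeR adjusted p = 3.30e-12). Neither gene's tissues overlapped. Grik2 and Grik5 were higher in AA hippocampus by log2 fold changes of 0.48 ± 0.10 and 0.24 ± 0.06, and in SS hippocampus by 0.52 and 0.28. Grid1, the delta receptor that binds to cerebellins at synapses, was higher by 0.19 ± 0.06 in AA and 0.21 in SS mice.

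The metabotropic receptors held the member with the lowest ratio, Grm8. Grm8 was at 5.07, 7.37 and 10.4 CPM in AA hippocampus and at 16.9, 21.6 and 27.1 CPM in AA cortex, a log2 fold change of -1.54 ± 0.13 (95% interval -1.80 to -1.29; edgeR adjusted p = 4.24e-13) in AA and -1.60 in SS mice. Grm4, like Grm8 a presynaptic receptor that lowers transmitter release, was at 9.79, 14.3 and 18.04 CPM in AA hippocampus and at 20.8, 26.6 and 31.4 CPM in AA cortex (-0.96 ± 0.08, edgeR adjusted p = 7.97e-13). Neither overlapped between the tissues. Grm3, which glia express as well as neurons, was lower in the hippocampus, at -0.75 ± 0.14 in AA and -0.65 in SS mice, with overlapping libraries. Grm5, a postsynaptic receptor that couples to Homer proteins, was higher in the hippocampus, at 159, 230.1 and 268 CPM against 90.9, 135 and 173 CPM in AA mice (0.72 ± 0.09, edgeR adjusted p = 1.75e-08). Grm2 and Grm7 did not pass the test in either genotype.

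Among the scaffolds, Homer1 was lower in the hippocampus and the other 4 were not. Homer1 was at 64.4, 82.7 and 98.7 CPM in AA hippocampus and at 117, 166 and 255 CPM in AA cortex, a log2 fold change of -1.14 ± 0.14 (95% interval -1.42 to -0.85; edgeR adjusted p = 1.15e-08). The tissues did not overlap in AA or SS mice, and the value in SS mice was -1.14 ± 0.17. The gene counts do not separate the short, activity-induced Homer1 transcript from the long ones. Shank3 was higher in AA hippocampus (0.41 ± 0.07, adjusted p = 2.54e-06), with 0.16 and a 95% interval of -0.01 to 0.32 in SS mice. Dlg4 was at 603, 724 and 833 CPM in AA hippocampus and at 637, 686 and 771 CPM in AA cortex, and its 95% interval ran from -0.05 to 0.19. Shank1 and Shank2 did not pass the test in either genotype.

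The CaMKII subunits were both higher in AA hippocampus, by different amounts. Camk2b was at 1134, 1453 and 1884 CPM in the hippocampus and at 766, 811 and 869.7 CPM in the cortex of AA mice (0.82 ± 0.07, edgeR adjusted p = 1.38e-13). Camk2a overlapped between the tissues, at 4096, 5066 and 6373 CPM against 3382, 4217 and 5463 CPM (0.24 ± 0.08, edgeR adjusted p = 0.0191), and had a log2 fold change of 0.19 with an adjusted p of 0.177 in SS mice. The transporter Slc17a7, the main carrier of cortical and hippocampal pyramidal cells, was at 1105, 1257 and 1461 CPM in AA hippocampus and at 1120, 1244 and 1396 CPM in AA cortex, and the 95% interval of its log2 fold change was -0.16 to 0.10.

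**Figure D2:**
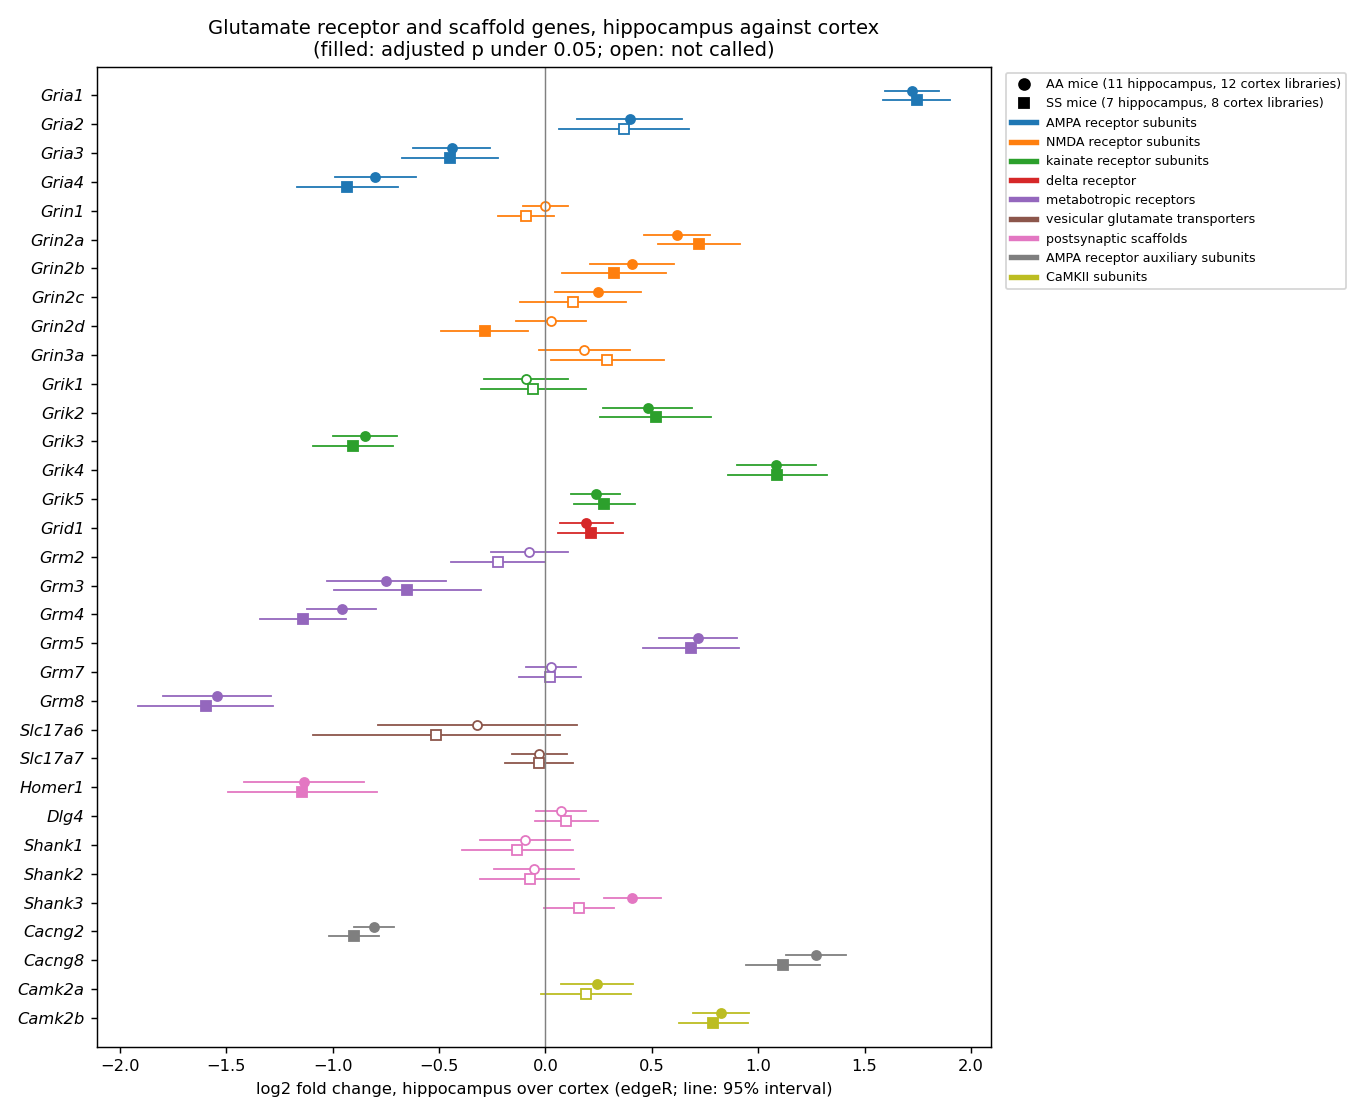
Log2 fold change of hippocampus against cortex with its 95% interval for the 33 genes, in AA (circles, 11 and 12 mice) and SS control mice (squares, 7 and 8 mice), with filled symbols for edgeR adjusted p under 0.05. The intervals of AA and SS lie beside each other for nearly all genes, from Gria1 at 1.72 and 1.75 to Grm8 at -1.54 and -1.60.

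The 18 genes called in both genotypes went the same way in both, which was 81.8% of the AA calls and 94.7% of the SS calls. Gria2, Grin2c, Shank3 and Camk2a were called in AA mice alone. With the mouse as a block, which pairs the tissues, Gria2 was also called in SS mice (0.38 ± 0.09, adjusted p = 0.0013), Grin3a was called in SS mice alone (0.32 ± 0.11, adjusted p = 0.0249), and Grin2c, Shank3 and Camk2a were again called in AA mice alone. The difference between the genotypes in the tissue effect was tested directly, and edgeR called 0 of the 33 genes (0% of all genes; 2 of the 33 and 222 of all genes at an unadjusted p under 0.05; DESeq2 called 0). The lowest unadjusted p-values were those of Grin2d (-0.31, SS minus AA) and Shank3 (-0.25), both with an adjusted p of 1. The 95% interval of this difference lay within ±0.5 for 30 of the 33 genes.

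Tissue differences were also read within single mice, since both tissues came from the same animal. In the 18 control mice with both libraries, 17 of the genes went 1 way in every mouse. The log2 ratio of hippocampal to cortical CPM of Gria1 was 1.38, 1.81 and 1.95 (lowest, median and highest mouse), and that of Homer1 was -1.90, -1.01 and -0.44. The 45 mice with RSD, minocycline or both were not part of the tissue test. In these, 7 genes went 1 way in every mouse, namely Gria1, Gria4, Grin2a, Grik4, Grm8, Cacng8 and Camk2b. Gria1 had log2 ratios of 0.77, 1.72 and 2.52 there, Cacng8 of 0.52, 1.29 and 2.26, and Grm8 of -2.88, -1.61 and -0.58. Homer1 was lower in the hippocampus of 40 of these 45 mice, with log2 ratios of -1.45, -0.60 and 0.21, and Cacng2 was lower in 43. The share of all genes that went 1 way in every mouse was not counted, so the counts of 17 and 7 have no comparison.

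The mouse labelled 9674 (AA + RSD) had the tissues the other way round for these genes. Its library labelled cortex had 982 CPM of Gria1 and 54.2 CPM of Cacng2, both among the values of the hippocampal libraries. Its library labelled hippocampus had 320.1 CPM of Gria1 and 124 CPM of Cacng2, among the cortical values. A hippocampal library of mouse 9810 (SS + RSD + minocycline) had 651 CPM of Gria1, between the tissues, 101 CPM of Cacng2, within the AA cortex range, and the highest summed cortex markers of any hippocampal library in the tests (361 CPM).

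**Figure D3:**
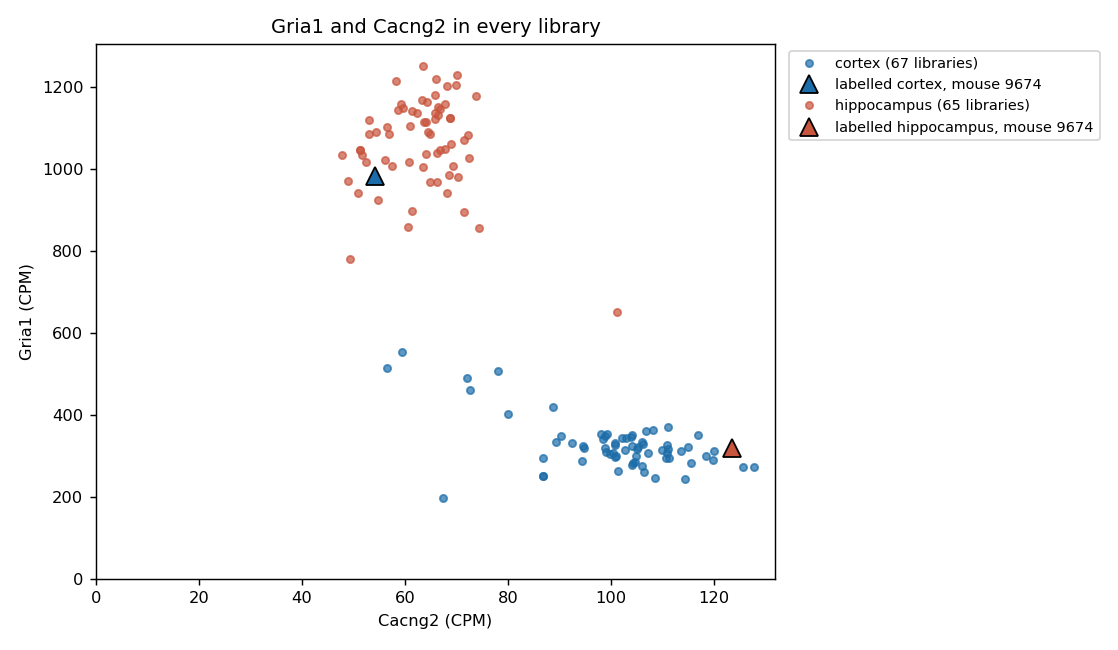
Level of Gria1 (y axis, CPM) and Cacng2 (x axis, CPM) in every cortical (67) and hippocampal (65) library, with triangles for the libraries labelled 9674. Control cortex sits at 294 to 362 CPM of Gria1 in AA mice and control hippocampus at 859 to 1252 CPM, and each triangle lies among the libraries of the other tissue.

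Of 41 other glutamate synapse genes that could be tested, 16 were higher and 15 lower in AA hippocampus, and 15 each way in SS hippocampus. Of all genes tested, 18.5% were higher and 18.1% lower in AA hippocampus, and 15.1% and 15.5% in SS hippocampus. Shisa6, another AMPA receptor auxiliary protein, had medians of 199.9 CPM in AA hippocampus and 13.6 CPM in AA cortex (log2 fold change 3.80 ± 0.10 in AA and 3.69 in SS mice). Homer3, a relative of Homer1, was also higher in the hippocampus, with medians of 57.8 and 7.05 CPM (3.06 ± 0.11 in AA and 2.92 in SS mice), the opposite direction from Homer1. The AMPA receptor trafficking protein Cnih2 was higher at 1.49 and 1.48. Nptx2, a secreted pentraxin that clusters AMPA receptors, was lower at -1.47 in AA and -1.55 in SS mice, and the AMPA receptor auxiliary protein Gsg1l at -1.44 and -1.58. The third of the lowest values was that of Cacng3 (-1.19) in AA and of Grip2 (-1.33) in SS mice.

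The comparison of SS with AA mice asked whether sickle cell disease changed these genes within a tissue and condition. In the control cortex edgeR called 0 of the 33 genes, with 0.206% of all genes called (2 of the 33 and 1643 of all genes at an unadjusted p under 0.05; DESeq2 called 0). Grm8 was at 13.9, 20.4 and 21.9 CPM in SS and at 16.9, 21.6 and 27.1 CPM in AA cortex (-0.27 ± 0.12, adjusted p = 0.678). Grin2c was at 44.05, 52.7 and 70.0 CPM in SS and at 30.7, 39.9 and 58.8 CPM in AA cortex (0.25 ± 0.11, adjusted p = 0.678), and Grm3 had a log2 fold change of -0.27 ± 0.14. All 3 overlapped between the genotypes. The 95% intervals lay within ±0.5 for 30 of the 33 genes.

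In the control hippocampus edgeR and DESeq2 also called 0 of the 33 genes, with 0.158% of all genes called by edgeR and 0 of the 33 and 896 of all genes at an unadjusted p under 0.05. The members with the lowest p-values were Grid1 (-0.10), Grm8 (-0.28) and Grik5 (0.12), each with an adjusted p of 1, and 30 of the 33 intervals lay within ±0.5. Under RSD the comparison had 6 SS and 2 AA mice. Again 0 of the genes were called by edgeR or DESeq2 in the cortex (0% of all genes; 0 of the 33 and 670 of all genes at an unadjusted p under 0.05) and in the hippocampus (0.0171%; 2 of the 33 and 667 of all genes). In the cortex Grm2 had a log2 fold change of -0.38 (95% interval -0.96 to 0.20), Gria4 of -0.21 and Grin2a of -0.26. In the hippocampus Camk2a was at 5065, 5678 and 7177 CPM in SS + RSD mice and at 4525 and 4758 CPM in the AA + RSD mice (0.40 ± 0.17, adjusted p = 1). Cacng2 (0.29) and Grin2a (0.35) followed, also with adjusted p-values of 1. The groups did not overlap for Camk2a and Grin2a, where 5.92% of all genes with a mean of at least 1 CPM did not overlap, and with 2 AA mice only 11 of the 33 intervals lay within ±0.5.

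Under RSD with minocycline, where the groups were larger, edgeR and DESeq2 called 0 of the 33 genes between SS and AA mice in either tissue. By edgeR 0.599% of all genes were called in the cortex (1 of the 33 and 2035 of all genes at an unadjusted p under 0.05) and 2.73% in the hippocampus (1 of the 33 and 1997 of all genes). All 33 intervals lay within ±0.5 in the cortex and 30 in the hippocampus. Slc17a7 was at 758, 1146 and 1276 CPM in SS and at 717, 1227 and 1440 CPM in AA cortex (-0.16 ± 0.07, adjusted p = 0.419), followed by Gria4 (-0.13 ± 0.07) and Grik3 (-0.21). Grm8 was at 5.15, 8.06 and 14.8 CPM in SS and at 3.96, 7.15 and 9.55 CPM in AA hippocampus (0.33 ± 0.15, adjusted p = 0.451), followed by Camk2b (-0.12) and Slc17a6 (0.41). The ranges of Slc17a7 and Grm8 overlapped between the genotypes.

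The comparisons of RSD with control mice asked whether stress changed these genes. In AA mice, with 2 RSD animals, edgeR and DESeq2 called 0 of the 33 genes in the cortex (0% of all genes; 0 of the 33 and 1148 of all genes at an unadjusted p under 0.05) and in the hippocampus (0.0419%; 3 of the 33 and 835 of all genes). Gria2 had the lowest adjusted p in both tissues. It was at 404 and 446 CPM in AA + RSD cortex against 371, 554 and 748 CPM in AA cortex (-0.39 ± 0.24, adjusted p = 0.822), and at 639 and 476 CPM in AA + RSD hippocampus against 474, 813 and 913 CPM (-0.45 ± 0.21, adjusted p = 0.899). Both RSD mice lay within the control range in each tissue. Grin2c (-0.31) and Gria3 (-0.21) followed in the cortex, and Cacng2 (-0.20) and Grik2 (-0.32) in the hippocampus.

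In SS mice edgeR called 0 of the 33 genes in the cortex after RSD, with 2.57% of all genes called (4 of the 33 and 5508 of all genes at an unadjusted p under 0.05; DESeq2 called 0). Grm3 was at 60.5, 65.4 and 80.7 CPM in SS + RSD and at 42.97, 52.6 and 74.7 CPM in SS cortex (0.39 ± 0.16, adjusted p = 0.118). Grin2d was at 9.79, 11.2 and 13.3 CPM against 10.6, 16.3 and 17.6 CPM (-0.33 ± 0.14, adjusted p = 0.123). The SS controls averaged 12.3 CPM of Grin2d in series A (n = 2) and 16.5 CPM in series B (n = 6). Dlg4 was at 624, 705 and 788 CPM against 616, 674 and 749 CPM (0.18 ± 0.08, adjusted p = 0.149). The ranges of each gene overlapped. When the number series was added to the model, the log2 fold changes of Grm3 and Dlg4 were -0.10 and -0.01, and a model of only the SS and SS + RSD groups called 5 of the genes, all lower, where it called 19.2% of all genes, 12.1% lower.

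In the hippocampus of SS mice edgeR called 0 of the 33 genes after RSD, with 3.11% of all genes called (4 of the 33 and 4050 of all genes at an unadjusted p under 0.05), and DESeq2 called 2, with 7.2% of all genes. Grik2 was at 50.9, 58.1 and 68.4 CPM in SS + RSD and at 54.9, 86.1 and 98.2 CPM in SS mice (-0.35 ± 0.11, edgeR adjusted p = 0.0722). Grm3 was at 41.9, 46.1 and 62.2 CPM against 26.2, 33.8 and 48.6 CPM (0.53 ± 0.18, edgeR adjusted p = 0.0836). Homer1 was at 77.4, 88.8 and 115 CPM against 62.4, 75.1 and 103 CPM (0.35 ± 0.14, edgeR adjusted p = 0.149). The groups overlapped for each gene, and when the number series was added to the model Grik2 was at 0.07.

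Minocycline without stress was replicated in SS mice alone, with 4 animals. Of these, 2 were of number series B and 2 of series C, while the SS controls were of series A and B. The drug and the series are thus partly mixed in this comparison. In the cortex edgeR and DESeq2 called 0 of the 33 genes (0% of all genes; 3 of the 33 and 1406 of all genes at an unadjusted p under 0.05). Shank3 was at 187, 231, 171 and 125 CPM in SS + minocycline and at 221, 255 and 279 CPM in SS cortex (-0.42 ± 0.18, adjusted p = 0.670). Grm8 was at 28.2, 25.7, 19.2 and 18.98 CPM against 13.9, 20.4 and 21.9 CPM (0.36, adjusted p = 0.676), and Grin2c had a log2 fold change of -0.33 (adjusted p = 0.699). For Shank3, 3 of the 4 minocycline libraries were below the control range, and for Grm8 2 of the 4 were above it. Within series B, with 2 SS + minocycline mice left, 11 of the 33 genes were called, all lower, where 27.1% of all genes were called, 12% lower. In the hippocampus edgeR and DESeq2 called 0 (0% of all genes; 0 of the 33 and 449 of all genes at an unadjusted p under 0.05). Dlg4, Cacng8 and Grid1 had the lowest p-values there, with log2 fold changes of 0.15, 0.26 and 0.11 and adjusted p-values of 0.981, and 24 of the 33 intervals lay within ±0.5.

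The last comparison asked what minocycline changed in mice under RSD, and it held the only members called by edgeR among the comparisons of genotype, stress and drug set out at the start. In SS + RSD + minocycline against SS + RSD mice, Homer1 and Dlg4 were lower in the cortex and Grik2 was higher in the hippocampus. Homer1 lies on chromosome 13 (chr13:93436143-93541637, plus strand), Dlg4 on chromosome 11 (chr11:69907768-69938348, plus strand) and Grik2 on chromosome 10 (chr10:48970929-49664880, minus strand) of GRCm39. Because edgeR called these members in this comparison, the 200 bases before the start of each gene's canonical GENCODE transcript are printed below. They run 5′ to 3′ on the gene's strand. For Homer1 and Dlg4 this window (chr13:93439971-93440170 and chr11:69909067-69909266) lies inside the annotated gene, downstream of other transcript starts. For Grik2 it is chr10:49664873-49665072. All letters are in lower case, since none of the searched motifs was found in them. 
Homer1: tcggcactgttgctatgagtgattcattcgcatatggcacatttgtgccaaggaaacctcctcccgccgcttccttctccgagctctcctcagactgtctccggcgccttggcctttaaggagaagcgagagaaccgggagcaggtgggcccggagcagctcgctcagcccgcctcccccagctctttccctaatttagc
Dlg4: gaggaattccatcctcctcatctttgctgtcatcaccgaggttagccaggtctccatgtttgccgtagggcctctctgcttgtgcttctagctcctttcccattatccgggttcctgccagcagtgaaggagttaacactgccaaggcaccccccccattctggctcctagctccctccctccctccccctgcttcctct
Grik2: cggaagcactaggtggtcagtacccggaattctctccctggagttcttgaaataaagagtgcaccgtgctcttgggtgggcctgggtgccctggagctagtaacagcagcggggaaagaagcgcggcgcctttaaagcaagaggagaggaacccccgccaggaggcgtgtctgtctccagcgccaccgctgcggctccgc
The motifs searched on both strands were the CRE (TGACGTCA), held by 1.59% of 21757 promoters of this length and by 0 of the 33, its core TGACG (16% and 1 of the 33), the GC box GGGCGG (34.8%, and 13 of the 33), TATAAA (9.57%, and 2 of the 33) and the EGR1 motif GCGTGGGCG (0.51%, and 1 of the 33). The core lies within the CRE, so these windows can count for both.

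In the cortex 2 of the 33 genes were called between SS + RSD + minocycline and SS + RSD mice, both lower, with 8.85% of all genes called (6.38% higher and 2.47% lower). The median log2 fold change of the 33 genes was -0.02, and that of all genes was -0.05. Homer1 was at 68.9, 106 and 182 CPM in SS + RSD + minocycline and at 141, 176 and 233 CPM in SS + RSD cortex, a log2 fold change of -0.82 ± 0.20 (95% interval -1.23 to -0.40; edgeR adjusted p = 0.0150). Dlg4 was at 548, 649 and 744 CPM against 624, 705 and 788 CPM, a log2 fold change of -0.26 ± 0.07 (95% interval -0.41 to -0.11; edgeR adjusted p = 0.0251). The groups overlapped for both genes. Next in order was Grin2d, at 10.49, 16.6 and 22.1 CPM against 9.79, 11.2 and 13.3 CPM (0.38, adjusted p = 0.0537), which is given here as the member just outside the threshold. Control mice of the number series also differed in cortical Grin2d, as given below. Without mouse 5391 of the SS + RSD group Dlg4 was at -0.18 with an adjusted p of 0.159, and without mouse 9615, 9616, 9621 or 5354 its adjusted p was 0.0559, 0.0530, 0.0613 or 0.0760. Homer1 stayed called without each of the 6 mice in turn, with adjusted p-values up to 0.0474. With the series as a term Homer1 was at -1.01 and Dlg4 at 0.01, each with an adjusted p of 1, and with the share of reads outside genes as a term Homer1 was at -0.86 with an adjusted p of 0.176.

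Marker levels of cell types and neighbouring regions were set beside these values, without a test between the groups. The summed neuron markers were at 4135, 5196 and 5787 CPM in SS + RSD and at 3672, 4963 and 6074 CPM in SS + RSD + minocycline cortex, and the summed microglia markers at 223, 235 and 320 CPM and at 162, 209 and 268 CPM. Endothelium markers summed to 162, 192 and 216 CPM in SS + RSD and to 116, 154 and 185 CPM in SS + RSD + minocycline cortex, and astrocyte markers to 427, 488 and 674 CPM and to 333, 398 and 614 CPM. The medians of these lists of 3 or 4 genes were all lower with minocycline, and the ranges overlapped. The median of the inhibitory neuron markers was higher, at 553, 590 and 1077 CPM in SS + RSD and at 480, 612 and 1790 CPM in SS + RSD + minocycline cortex. Oligodendrocyte markers were at 2896, 4342 and 5090 CPM and at 2147, 4029 and 5784 CPM. The summed striatum markers were at 52.2, 60.8 and 560.4 CPM in SS + RSD and at 39.4, 104 and 467 CPM in SS + RSD + minocycline cortex. The summed cortex markers were at 237 to 284 CPM in 5 cortical libraries, 3 of them of SS + RSD + minocycline and 1 of SS + RSD mice. Without these libraries Homer1 was at -0.73 (adjusted p = 0.0347) and Dlg4 at -0.23 (adjusted p = 0.0642). The part of these markers in the values above was not tested otherwise.

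In the hippocampus 1 of the 33 genes was called, with 5.96% of all genes called (4.88% higher). Grik2, a kainate receptor subunit found at mossy fiber synapses, was at 59.8, 76.7 and 95.3 CPM in SS + RSD + minocycline and at 50.9, 58.1 and 68.4 CPM in SS + RSD mice, a log2 fold change of 0.33 ± 0.10 (95% interval 0.13 to 0.54; edgeR adjusted p = 0.0466). The ranges overlapped. The microglia markers were at 257, 274 and 338 CPM in SS + RSD and at 177, 228 and 264 CPM in SS + RSD + minocycline hippocampus, the endothelium markers at 178, 180.1 and 194 CPM and at 97.7, 144 and 191 CPM, the astrocyte markers at 670.4, 786 and 943 CPM and at 526.3, 670.5 and 873 CPM, and the neuron markers at 3681, 3908 and 4411 CPM and at 3769, 4225 and 5093 CPM. Thus the medians of the first 3 lists were lower and that of the neuron markers higher with minocycline, with overlapping ranges, and their part in the value of Grik2 was not tested. The call was kept under 3 of 14 alternatives, and it was lost without any 1 of the SS + RSD mice 5391, 9615, 9616, 9621 and 5354 (adjusted p 0.0560 to 0.101). When the number series was added to the model its value was -0.28 (adjusted p = 0.356), the opposite direction. Homer1 was at -0.31 ± 0.12 (adjusted p = 0.105) and Dlg4 at -0.19 (adjusted p = 0.102) in the hippocampus. The SS + RSD libraries of this comparison are those of SS + RSD against SS, in which Grik2 had a log2 fold change of -0.35.

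In AA mice the same comparison had 18 mice against 2. In the cortex edgeR and DESeq2 called 0 of the 33 genes (0% of all genes; 3 of the 33 and 2867 of all genes at an unadjusted p under 0.05). Homer1 was at 73.8, 109.9 and 187 CPM in AA + RSD + minocycline and at 179 and 186 CPM in AA + RSD cortex (-0.71 ± 0.21, 95% interval -1.14 to -0.28, adjusted p = 0.282). Dlg4 was at 424, 657 and 785 CPM against 737 and 789.8 CPM (-0.29 ± 0.13, adjusted p = 0.354), and Grin2c had a log2 fold change of 0.52 ± 0.20 (adjusted p = 0.321). In the hippocampus edgeR and DESeq2 called 0 (0.0419% of all genes; 5 of the 33 and 1494 of all genes at an unadjusted p under 0.05), and the members with the lowest p-values were Gria3 (0.34), Gria2 (0.44) and Grik2 (0.33), each with an adjusted p of 0.696.

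**Figure D4:**
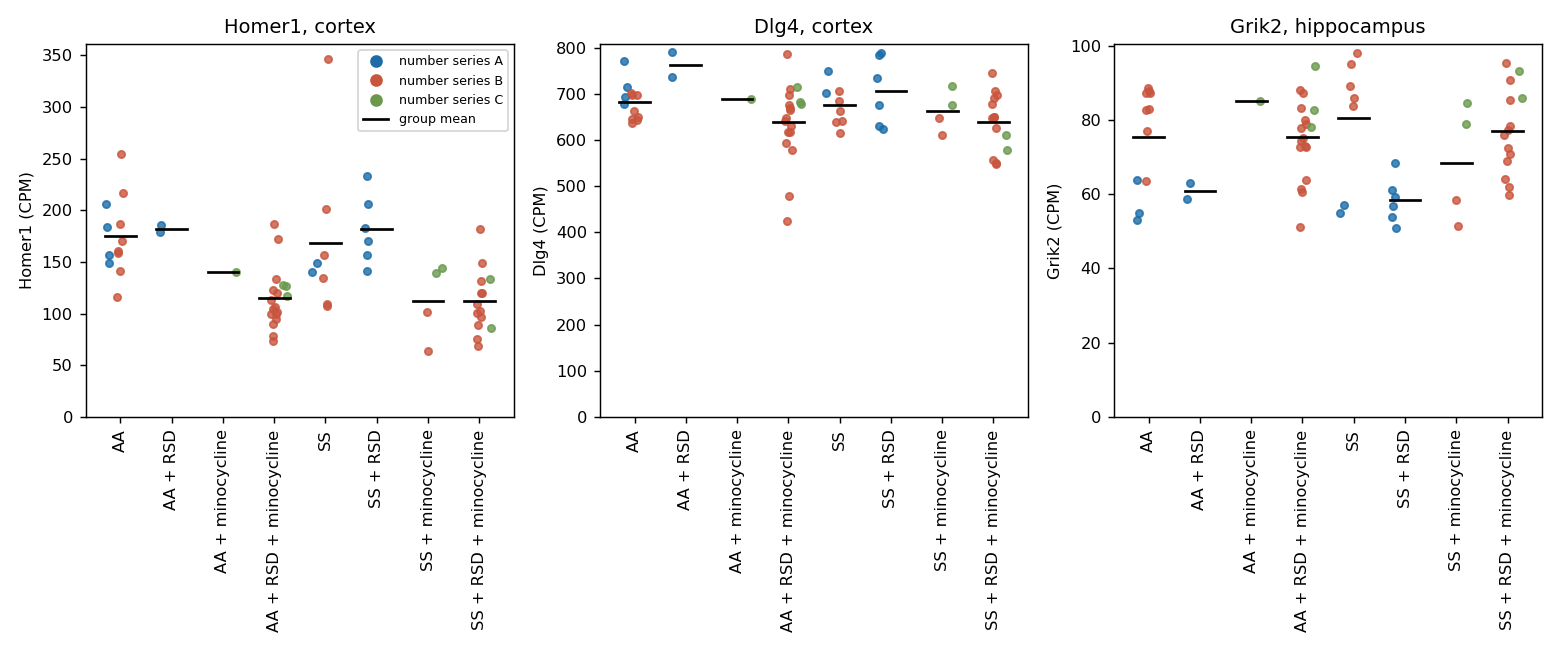
Level in CPM of Homer1 in cortex, Dlg4 in cortex and Grik2 in hippocampus in each library used, by group, with the number series as colour and the group mean as a line. SS + RSD + minocycline libraries spread from 68.9 to 182 CPM of Homer1 and SS + RSD libraries from 141 to 233 CPM, and the stressed mice without minocycline are all in series A.

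Control mice of both series allowed the number series itself to be compared, with the genotype as a term, in a test added after the data were seen. In the cortex 15 of the 33 genes differed between series B and series A, 10 higher and 5 lower, where 42.8% of all genes did (23.6% higher and 19.3% lower, 14 mice against 6). In the hippocampus 12 differed, 9 higher and 3 lower, where 44.3% of all genes did (20.7% higher and 23.6% lower, 13 mice against 5). Grik2 was at 63.7, 87.4 and 98.2 CPM in series B and at 53.05, 54.9 and 63.8 CPM in series A hippocampus (0.49, adjusted p = 7.63e-05), and it was also higher in the cortex (0.44, adjusted p = 0.000372). Dlg4 was at 616, 657 and 706 CPM in series B and at 679, 709 and 771 CPM in series A cortex (-0.17, adjusted p = 0.00157). Homer1 was at 107, 159.8 and 347 CPM against 141, 153 and 206 CPM in the cortex, and its log2 fold change was 0.05 with a 95% interval of -0.36 to 0.46. The other genes called in both tissues were the AMPA receptor subunits Gria2 (0.52 in cortex and 0.50 in hippocampus), Gria3 (0.31 and 0.46) and Gria4 (0.22 and 0.44), Grm7 (0.20 and 0.16) and Shank1, all higher in series B, and Grm3 (-0.42 and -0.46) and Slc17a7 (-0.15 and -0.23), both lower. In the cortex alone, Grin1, Grin2c, Grin2d and Grik4 were higher in series B, and Grid1 and Cacng8 were lower. In the hippocampus alone, Grik3, Grm5 and Shank2 were higher. Grik2 and Dlg4 differed between control mice of the series in the same direction as between RSD mice with and without minocycline. Cortical Grin2d was also higher in both cases, without a call between the RSD groups of SS mice. Homer1 was not called between the series, and its interval of -0.36 to 0.46 leaves room for a difference either way. In RSD mice drug and series cannot be told apart by a direct comparison, so the part of each in these values is not known.

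Within series B, RSD with minocycline was compared with the control of the same genotype, also as an added test. The share of reads outside genes varied within series B. Its lowest value in SS cortex was 8.63% in control and 4.87% in RSD + minocycline mice, and the means were 9.84% and 8.89%. For AA cortex the lowest values were 4.68% and 4.35%, and the means 8.29% and 8.41%. For SS hippocampus the lowest values were 7.6% and 4.56%, so the SS controls lacked the low shares in both tissues. In AA cortex Homer1 was at 73.8, 104 and 187 CPM in 15 RSD + minocycline mice and at 117, 166 and 255 CPM in 8 control mice (-0.65 ± 0.15, 95% interval -0.95 to -0.34, edgeR adjusted p = 0.0548). EdgeR called 0 of the 33 genes there and 0.238% of all genes (1 of the 33 and 1078 of all genes at an unadjusted p under 0.05), and DESeq2 called 1, Homer1, with 0.31% of all genes. In SS cortex Homer1 was at 68.9, 106 and 182 CPM in 12 RSD + minocycline mice and at 107, 146 and 347 CPM in 6 control mice (-0.64 ± 0.23, 95% interval -1.11 to -0.16, edgeR adjusted p = 0.622). The 347 CPM was that of mouse 9903, which stood apart from the other SS control cortex libraries (107 to 201 CPM). No fit without this mouse was run, so its weight in the value of -0.64 is not known. EdgeR and DESeq2 called 0 of the 33 genes there (0% of all genes; 4 of the 33 and 1303 of all genes at an unadjusted p under 0.05). The ranges overlapped in both genotypes. Cacng2 was at -0.17 (adjusted p = 0.834) in AA and at -0.31 (adjusted p = 0.622) in SS cortex, and Dlg4 was at -0.10 and -0.01.

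In the hippocampus within series B, edgeR and DESeq2 called 0 of the 33 genes in AA mice (0.14% of all genes; 7 of the 33 and 2589 of all genes at an unadjusted p under 0.05) and in SS mice (0% of all genes; 1 of the 33 and 1571 of all genes). Grik2 had log2 fold changes of -0.14 in AA and -0.22 (adjusted p = 0.497) in SS mice. Grm5 was at 97.1, 203 and 238 CPM in AA + RSD + minocycline and at 220.4, 236 and 268 CPM in AA hippocampus (-0.28, adjusted p = 0.245). Grm3 (0.33) and Grm8 (0.40) followed Grik2 in SS mice, and Grik3 (-0.32) followed Grm5 and Homer1 in AA mice. Homer1 was at -0.19 (95% interval -0.34 to -0.04) in AA and at -0.04 (95% interval -0.32 to 0.24) in SS hippocampus.

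Of the 41 other glutamate synapse genes, 3 were lower in the cortex of SS + RSD + minocycline than of SS + RSD mice and 1 in the hippocampus. Of all genes tested, 2.47% were lower in the cortex and 1.08% in the hippocampus. Nptx2, like Homer1 a gene induced by neuronal activity, had medians of 33.4 and 61.5 CPM without overlap between the groups, where 0.266% of all genes with a mean of at least 1 CPM did not overlap (-0.98 ± 0.18, adjusted p = 0.0069), and -0.49 with an adjusted p of 1 with the series as a term. The scaffold Dlg1, a relative of Dlg4, was at -0.29 (adjusted p = 0.0268) and Gsg1l at -0.35 (adjusted p = 0.0375). With the series as a term Dlg1 was at -0.098 and Gsg1l at -0.12. Nptx2 was called under 12 of 14 alternatives, Dlg1 under 7 and Gsg1l under 2. In the hippocampus the glial glutamate transporter Slc1a2 was at -0.31 (adjusted p = 0.0452). Slc1a2 was called under 3 of 14 alternatives, and with the series as a term it was at -0.32 (edgeR adjusted p = 0.467).

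**Figure D5:**
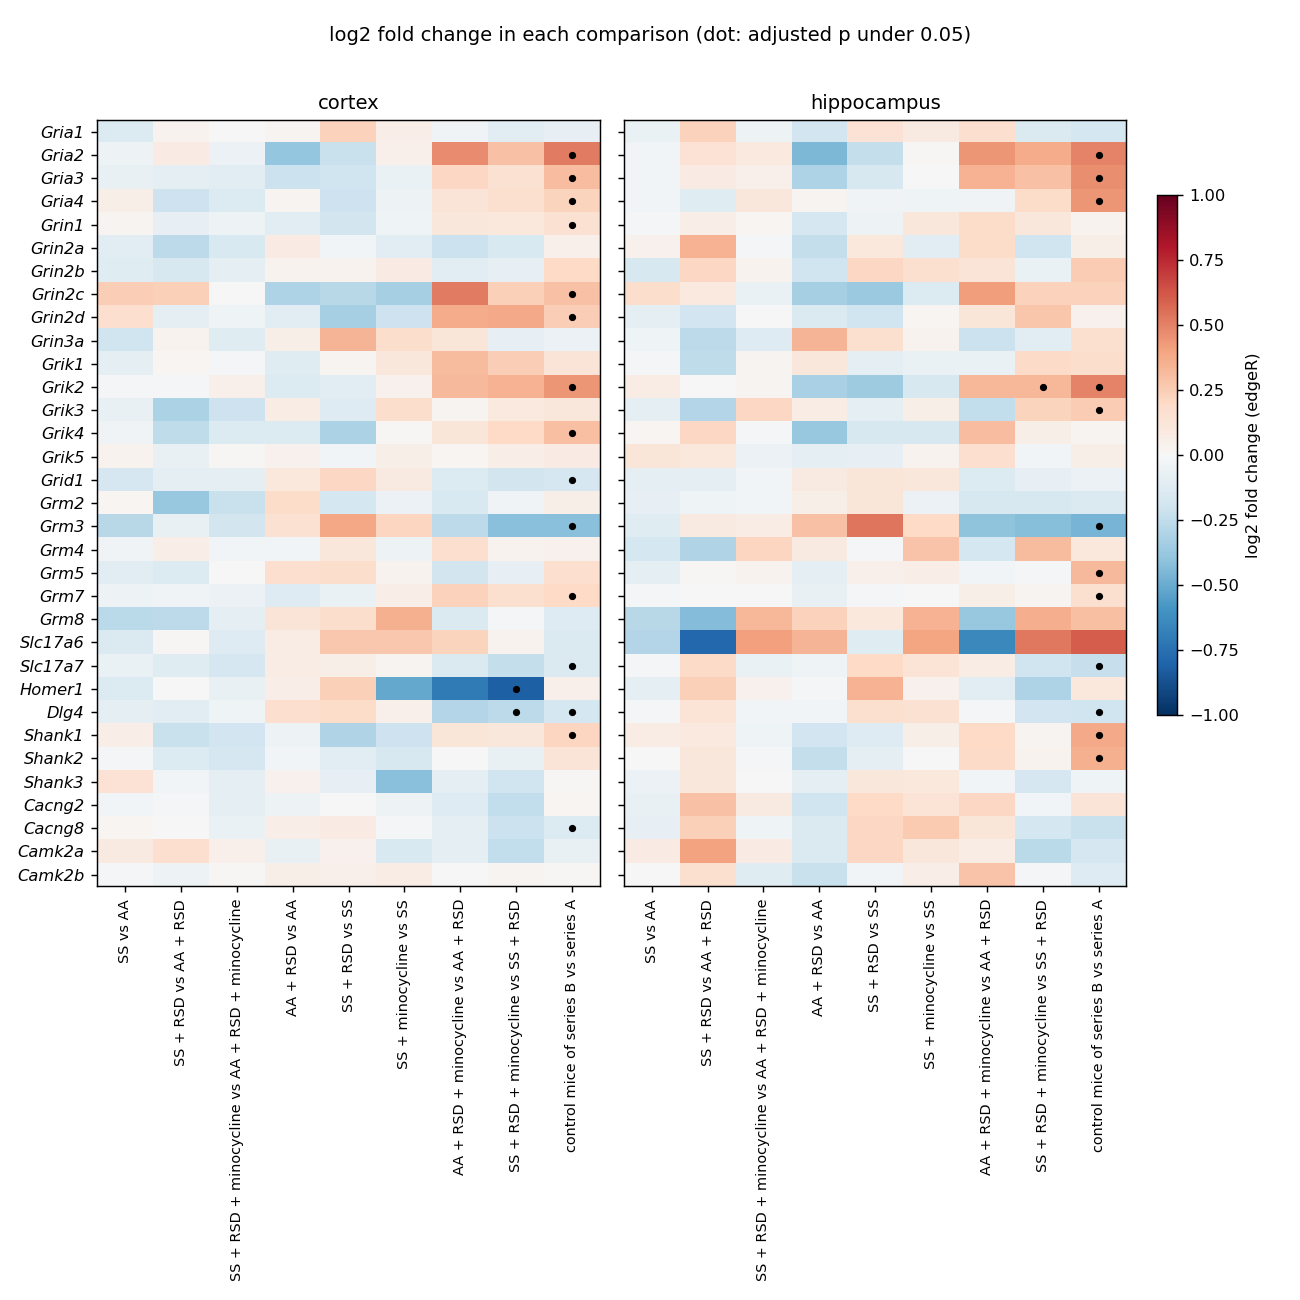
Log2 fold change of the 33 genes (rows, by role) in 9 comparisons of each tissue (columns), coloured from -1 to 1, with a dot for edgeR adjusted p under 0.05. Dots stand only in SS + RSD + minocycline against SS + RSD (Homer1 and Dlg4 in cortex, Grik2 in hippocampus) and in the columns of series B against series A (15 and 12 genes), and the other columns hold no call.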

How the data were processed

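Gene counts of 134 libraries with a known group were analysed, from 68 cortex and 66 hippocampus samples of the same mice. The authors made poly(A)-selected, strand-specific libraries, mapped the single-end reads to GRCm39 with STAR and deposited the raw count of reads per GENCODE gene; the STAR version, annotation release and strand setting are not given in the sources used here. Depth, as reads on genes, was 16295042 to 107713193 in the cortex and 12869149 to 68731008 in the hippocampus. Of the tables, 3 columns were not used, and 1 sample whose labels name different tissues was left unassigned.

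CPM was a gene's reads scaled to 1000000 reads on genes, with no other scaling. Differences were tested on the counts as deposited with edgeR 4.0.16 (limma 3.58.1, R 4.3.3): filterByExpr (minimum count 10, minimum total 15), TMM, quasi-likelihood test, Benjamini-Hochberg adjustment over all genes tested, called at an adjusted p under 0.05. Conditions were compared in a model of all groups of a genotype and tissue, genotypes in a model of all groups of a tissue, and tissues in a model of the control mice. Both libraries labelled 9674 and, in each tissue, the 2 libraries with identical counts were left out. The members and lists were chosen with earlier results of these data known. Named were all members called, or the 6 highest and 6 lowest log2 fold changes where over 12 were called, or the 3 with the lowest p-values where none was, and up to 3 other glutamate genes per direction among those called; Grin2d in the cortex, and repeated mentions of Homer1, Dlg4, Grik2, Gria1, Grin2d and Cacng2 elsewhere, were chosen after their values were seen. Alternatives were other size factors, DESeq2 1.42.0, no filter, number series or share of reads outside genes as a term, libraries added or left out, and a replicate block by mouse, since both tissues came from the same animal. Comparisons within or between number series and the omission of libraries low in their tissue's markers were added after seeing the data. Replicates are separate mice. The fits were tested on simulated data. Motifs and sequences were read from GRCm39 with the GENCODE annotation. CPM intervals are not given; the 95% intervals are those of the edgeR fit.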

Additional observations from a re-analysis of the deposited data

Results flagged for a closer look

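Values that stood apart from the rest of their group by Dixon's criterion were found in 17 of 198 pairs of a gene and a group of 4 to 10 libraries (8.59%). Chance gives about 1 in 20 for separate trials. The genes share their libraries here, so that rate cannot be set against the count. Of these, 9 were from the cortical SS + RSD library of mouse 9621, which also had the low summed cortex markers and the high striatum markers given above. Gria1 was at 490.4 CPM there (273 to 349 CPM in the other libraries of the group), Grin3a at 63.4 (35.6 to 43.6), Grik2 at 80.6 (33.6 to 47.2), Grm3 at 80.7 (60.5 to 67.1), Grm4 at 41.02 (22.9 to 28.2), Grm5 at 252 (84.6 to 137) and Camk2b at 995 (753 to 823), all the highest. Grin1 at 431 CPM (549 to 569) and the pyramidal cell transporter Slc17a7 at 949 CPM (1206 to 1336) were the lowest. In the hippocampus of the same mouse Gria1 was the lowest of SS + RSD, at 855 CPM (1085 to 1203).

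Homer1 was at 347 CPM in the cortex of SS mouse 9903 (107 to 201 in the others) and Grin2c at 70.0 CPM in that of SS mouse 5785 (44.05 to 55.6). Slc17a6, the transporter of thalamic and other subcortical projections, was at 11.3 CPM in the cortex of SS + RSD mouse 5391 (25.9 to 30.2). Grin2a was at 334 CPM in the hippocampus of SS + RSD mouse 5354 (242 to 267). In SS + minocycline mice, Grm2 was at 59.7 CPM in the cortex of mouse 9888 (70.3 to 72.1), Grik1 at 9.63 CPM in the hippocampus of mouse 9888 (14.1 to 14.6) and Grid1 at 76.4 CPM in that of mouse 9889 (83.1 to 84.4).

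The single AA + minocycline mouse, which has no replicate and entered no comparison, had 8 of the 33 genes above every AA library in the cortex, where 13.2% of all genes with a mean of at least 1 CPM in AA mice were, (Grin3a, Grik2, Grik5, Grm3, Grm5, Grm7, Shank1 and Cacng8) and 10 in the hippocampus, where 10.2% of all such genes were (Gria2, Gria3, Gria4, Grik3, Grm3, Grm4, Grm5, Grm7, Homer1 and Shank1). Cacng2 was below every AA library in its cortex, where 9.91% of all such genes were. This mouse was of number series C, which held no AA control.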

How the results depend on the processing

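The 12 tissue differences with the highest and lowest fold changes were called under 6 of 6 alternatives in AA and SS mice. With the replicate block, pairing the tissues of 18 mice, 22 genes differed in AA mice (14 higher and 8 lower). In SS mice 21 differed (12 higher and 9 lower), and 0 differed between the genotypes. The share of all genes called with this block is not given here, so these counts have no comparison. The pairing moved no count past 1.5 times. Homer1 in the cortex was called under 12 of 14 alternatives and Dlg4 under 5 of 14. Settings that added or left out no library of a comparison are not counted.

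Counts of members called moved as follows. For SS + RSD + minocycline against SS + RSD in the cortex (2), DESeq2 gave 5 (13.6% of all genes), no filter 1 (3.05%), the series term 0, the term for reads outside genes 0, and leaving out 1 mouse 1 to 2. In the hippocampus (1), RLE size factors, no filter, either term, omission of the libraries labelled 5844, 5853, 7078 and 9631, whose red cell or globin counts go against their labels, and omission of the low-marker libraries each gave 0, a model of only these groups 2 (7.13% of all genes), and leaving out 1 mouse 0 to 1. For AA + RSD + minocycline against AA + RSD (0), the libraries labelled 9674 gave 2 in the cortex (3.6% of all genes) and 3 in the hippocampus (2.67%). For SS + RSD against SS (0), a model of only these groups gave 5 in the cortex (19.2% of all genes) and 1 in the hippocampus (8.03%), where DESeq2 gave 2 (7.2%). SS + minocycline against SS in series B cortex gave 11 (27.1% of all genes). RSD + minocycline against AA in series B cortex (0) gave 1 with DESeq2, no filter, the term for reads outside genes, or without those 4 mice (0.31% to 1.77% of all genes).

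Log2 fold changes that turned direction were, with the series term, Grm3 (-0.10) and Dlg4 (-0.011) in cortex and Grik2 (0.073) in hippocampus for SS + RSD against SS, Dlg4 (0.0061) in cortex and Grik2 (-0.28) in hippocampus for SS + RSD + minocycline against SS + RSD, Grik2 (0.024) in hippocampus for AA + RSD against AA, and Gria3 (-0.086), Gria2 (-0.091) and Grik2 (-0.15) in hippocampus for AA + RSD + minocycline against AA + RSD. Within series A they were Gria2 (0.029) and Gria3 (0.0058) in cortex and Grik2 (0.040) in hippocampus for AA + RSD against AA, Grm3 (-0.11) and Dlg4 (-0.021) in cortex and Grik2 (0.10) in hippocampus for SS + RSD against SS, and Grm3 (0.028) in cortex and Grik5 (-0.023) in hippocampus for SS against AA. With the libraries labelled 9674 they were Gria4 (0.044) in cortex and Cacng2 (-0.26) in hippocampus for SS + RSD against AA + RSD, and Cacng2 (0.35) in hippocampus for AA + RSD against AA. The cause was not tested. With 2 AA + RSD mice, 21 of the 33 intervals of AA + RSD against AA lay within ±0.5 in the cortex.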
